A study of Mus musculus with 2 samples.

Results

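The regions described here are peak summits of H3K27ac, the acetylation of lysine 27 on histone H3, that were called at the end of a single gene in both genotypes of the study. A member is a summit of the WT list on chromosomes 1 to 19 or X that had an outer end of exactly 1 protein-coding gene no more than 1 kb away and a Tle4cKO summit within 500 bp. The members were thus chosen by the peak calls of both libraries, and their sharing and their scores are no findings. Of the 10478 WT summits, 770 met this rule, and they fell on 764 genes and 766 distinct Tle4cKO summits. The WT list held 3565 summits at a single-gene end in all, so that 21.6% of them were called in Tle4cKO as well, and the other 2795 were called in WT alone.

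The libraries were made by CUT&Tag, in which an antibody brings a transposase to chromatin with the mark, and the fragments it cuts out are sequenced. The WT group carried Lyz2-Cre, and the Tle4cKO group, of genotype Tle4f/f Lyz2-Cre, carried the same Cre with floxed Tle4 alleles, all on C57BL/6. Lyz2-Cre is active across myeloid cells and not in one macrophage type. Siglec-F-negative, Ly6C-low, CD64-positive colonic macrophages of 4 male mice of 11.1 weeks were pooled for each genotype, giving 1 library each, so no test between genotypes was possible and no difference between mice could be seen. The score given for each summit is the authors' deposited peak strength on a −log10 scale; whether it is a p-value or a q-value is not stated. It grows with read depth, which is unknown for both libraries, so WT and Tle4cKO scores are set side by side without a fold change. A summit without a partner was not called in the other list and may carry signal under the calling threshold.

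H3K27ac is laid down by the acetyltransferases p300 and CBP and marks active promoters and enhancers. At an active promoter the nucleosomes that flank the transcription start carry the mark, while the start itself is kept free of nucleosomes. Tle4 is a Groucho-family corepressor, which binds no DNA itself and recruits histone deacetylases to DNA-bound factors. Promoters of broadly expressed genes are often rich in CpG dinucleotides and hold sites for ETS, SP/KLF, NRF1 and NFY factors, whereas a TATA box is more typical of tissue-restricted or inducible genes.

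The sequences of 5 promoters show what such a region looks like in sequence, and were taken as those with the highest WT scores among the 88 members whose WT and Tle4cKO summits both lay inside the RefSeq promoter sequence (GRCm38.p6, 250 bases before to 50 after the start). Each line gives the 250 bases before the start, 5′ to 3′ on the strand of the gene, with matches to the 14 motifs searched in capitals.
Bccip, chr7:133709083-133709332, plus strand: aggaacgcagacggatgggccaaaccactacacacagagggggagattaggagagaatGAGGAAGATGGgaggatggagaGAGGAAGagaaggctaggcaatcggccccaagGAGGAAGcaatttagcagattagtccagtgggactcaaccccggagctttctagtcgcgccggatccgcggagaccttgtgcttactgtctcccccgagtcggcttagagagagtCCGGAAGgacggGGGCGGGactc
Rab28, chr5:41708180-41708429, minus strand: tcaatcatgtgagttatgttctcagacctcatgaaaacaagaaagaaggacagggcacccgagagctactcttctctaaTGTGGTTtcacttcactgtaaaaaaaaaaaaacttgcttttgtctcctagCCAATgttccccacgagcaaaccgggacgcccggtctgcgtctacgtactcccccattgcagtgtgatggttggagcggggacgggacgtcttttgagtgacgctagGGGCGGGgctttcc
Eif3b, chr5:140419055-140419304, plus strand: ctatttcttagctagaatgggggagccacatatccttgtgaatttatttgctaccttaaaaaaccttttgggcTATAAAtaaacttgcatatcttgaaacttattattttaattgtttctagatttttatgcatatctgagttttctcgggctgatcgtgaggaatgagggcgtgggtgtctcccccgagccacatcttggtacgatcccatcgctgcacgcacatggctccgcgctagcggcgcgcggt
Mrpl11, chr19:4962056-4962305, plus strand: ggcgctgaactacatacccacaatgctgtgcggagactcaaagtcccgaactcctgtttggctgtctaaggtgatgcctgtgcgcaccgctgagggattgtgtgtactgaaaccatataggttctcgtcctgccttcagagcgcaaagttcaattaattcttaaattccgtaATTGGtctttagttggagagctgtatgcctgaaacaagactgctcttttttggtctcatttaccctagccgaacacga
Flcn, chr11:59810040-59810289, minus strand: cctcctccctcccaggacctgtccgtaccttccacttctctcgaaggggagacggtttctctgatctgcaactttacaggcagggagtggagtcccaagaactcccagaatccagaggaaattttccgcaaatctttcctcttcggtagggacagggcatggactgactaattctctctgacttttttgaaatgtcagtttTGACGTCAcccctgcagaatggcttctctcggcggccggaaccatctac

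Positions in these promoters are counted back from the start, so that -1 is the last base before it. Bccip, whose product interacts with BRCA2 and the cell cycle inhibitor p21, had its WT summit (score 28.6) at -208 and its Tle4cKO summit (11.96) at -211. The capitals in its promoter mark 3 PU.1-type ETS matches from -192 to -138, a YY1 match at -188, an ETS match at -23 and an SP/KLF match at -11. Rab28, a small GTPase, had summits at -81 in WT (26.4) and -196 in Tle4cKO (8.06), with a RUNX match at -171, an NFY match at -121 and an SP/KLF match at -14. Eif3b, a scaffold subunit of translation initiation factor eIF3, had summits at -232 (21.9) and -221 (8.39). Its single match was a TATA-type sequence at -177, which is far upstream of where a TATA box acts. Mrpl11, a protein of the large mitochondrial ribosomal subunit, had summits at -41 (21.8) and -18 (8.15) and an NFY match at -78 on the opposite strand. Flcn, which encodes folliculin, a regulator of the mTORC1 kinase at lysosomes, had summits at -3 (20.7) and -30 (10.9). The CRE match in the Flcn promoter is palindromic and is counted once on each strand, at -49 and -48. The ratio of observed to expected CpG dinucleotides in the whole 300-base promoters was 0.822 for Bccip, 0.712 for Rab28, 1.01 for Eif3b, 0.714 for Mrpl11 and 0.833 for Flcn.

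The rule took in both outer ends of a gene, but nearly all members lay at the end where transcription begins. The strand was known for 636 members through the 630 member genes with an entry in the RefSeq promoter table, and 134 members could not be placed. Every member on chromosome 18 that is in a function list was among those 134, and this chromosome held 29 members in all. The results on starts, CpG and motifs therefore leave out these listed genes of chromosome 18. Of the 636, 623 (98.0%, exact Clopper-Pearson 95% interval 96.5 to 98.9%) were nearer to the start than to the other end. Among WT-only summits the share was 96.0% (95.1 to 96.7%, 2216 of 2309). Intervals here and below cover counting error only. Read the other way, 623 of 2839 WT summits at starts (21.9%, 20.4 to 23.5%) and 13 of 106 at other ends (12.3%, 6.69 to 20.1%) had a Tle4cKO summit. WT scores of 9 or more were found at 331 of the 2839 and at 3 of the 106. The part of the score in the lower share at other ends was not tested.

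Member summits were concentrated just downstream of the start. At starts, the median position of the WT summit was 148 bp downstream (quartiles -54.5 and 240.5 bp), and that of the Tle4cKO summit 166 bp downstream. In all, 439 of 623 (70.5%, 66.7 to 74.0%) lay downstream, and 366 (58.7%, 54.8 to 62.6%) lay between 51 and 500 bp. The fullest 50-bp bin, from 200 to 250 bp, held 14.6% of the members within 1 kb of a listed start. A further 148 (23.8%) lay inside the 300-base promoter, 57 (9.15%) from 251 to 1000 bp upstream and 45 (7.22%) from 501 to 1000 bp downstream, and 7 lay over 1 kb from any listed start. WT-only summits had their median at 133 bp, with 64.5% (62.5 to 66.5%) downstream and 15.9% (14.4 to 17.5%) in the upstream range of 251 to 1000 bp. In 541 of 623 members (86.8%, 83.9 to 89.4%) the summits of both genotypes lay on the same side of the start. The rule kept these summits within 500 bp of each other, which favours the same side, so nothing is read from this share.

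**Figure D1:**
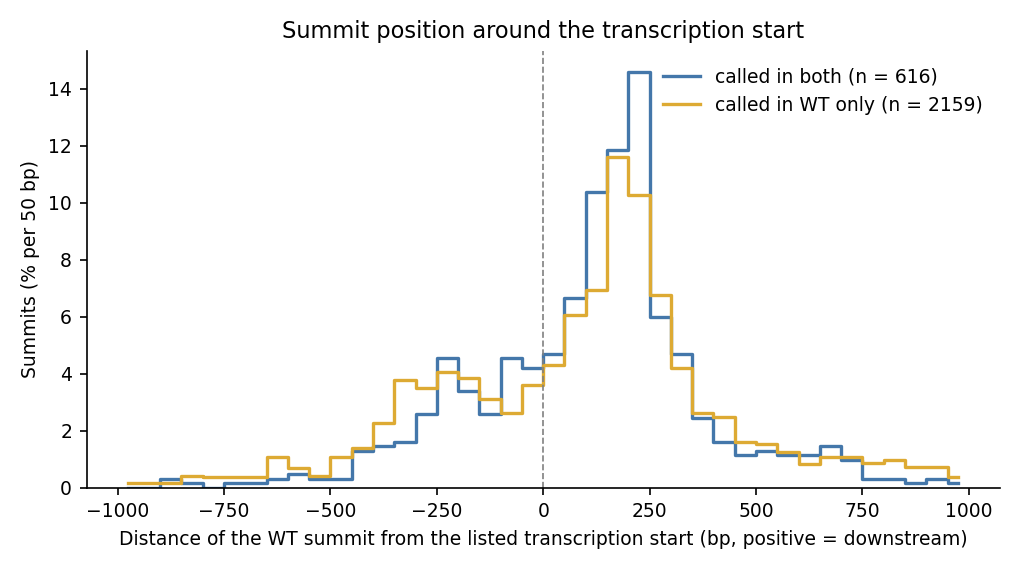
Position of WT summits relative to the nearest listed transcription start, in bp on the x axis, as the percentage of summits per 50-bp bin on the y axis, for 616 members and 2159 WT-only summits within 1 kb of a start. Both lines peak between 150 and 250 bp downstream, with a lower shoulder upstream of the start.

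The rule kept the WT and Tle4cKO summits of a member within 500 bp of each other, so their closeness is no finding. The median distance was 89 bp (quartiles 35 and 199 bp), 413 of 770 pairs (53.6%) were within 100 bp and 74 (9.61%) within 10 bp. At the limits of the rule, Chrac1 (scores 5.95 in WT and 4.87 in Tle4cKO, 499 bp apart), Dglucy (2.91 and 4.02, 489 bp) and Ccdc138 (6.60 and 3.99, 485 bp) were just inside the distance for partners. Birc5 (5.49 and 4.32, 519 bp), Zfp932 (5.08 and 3.24, 521 bp) and Efr3a (5.64 and 2.63, 524 bp) were just outside. For the distance to the gene end, Senp6 (6.999 and 2.05, 1000 bp), Slfn5 (5.97 and 3.30, 993 bp) and Nlrx1 (3.08 and 2.33, 992 bp) were the last inside. Ercc5 (4.45 and 3.99, 1009 bp), Cep20 (9.03 and 4.32, 1014 bp) and Umad1 (5.86 and 3.35, 1015 bp) were the first outside.

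A further 13 members, as far as strand was known, lay at the end where the gene's transcription finishes, and 11 of these were over 1 kb from any listed start. The summit with the highest score of all members was one of them. It lay at position 159939539 of chromosome 3, 873 bp beyond the end of Wls, the carrier that brings Wnt proteins to the cell surface, and 99889 bp downstream of the Wls start, with scores of 78.2 in WT and 65.4 in Tle4cKO. The predicted gene Gm32584 had a member at each end, with scores of 54.8 and 56.4 near its start and 34.4 and 21.7 near its other end, where both lists gave the same base (distance 0 bp). These 3 regions had the 3 highest scores of the members in either genotype, and no other member scored at least 20 in Tle4cKO. The remaining members at this end included Tmem253 (18.4 and 3.36), Rasal2, a Ras GTPase-activating protein (7.93 and 6.57), and the kidney sodium-chloride transporter gene Slc12a3 (5.48 and 2.53). The median scores of the 13 were 5.65 and 4.13, against 6.87 and 4.29 for the 623 at starts.

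The promoters of the members were rich in CpG dinucleotides. Over the 611 distinct promoter sequences nearest to members within 1 kb of a listed start, the median ratio of observed to expected CpG was 0.792 (quartiles 0.624 and 0.916), and 78.1% (74.6 to 81.3%) had a ratio of at least 0.6. WT-only promoters were close to these values, with a median of 0.799 and 77.5% (75.7 to 79.3%) over 2105 sequences. The 21020 distinct promoters listed for protein-coding genes, called all promoters here, had a median of 0.574 and 48.1% (47.4 to 48.8%). Unlike the member and WT-only sets, this set was not chosen as the start nearest to a summit. Genes without a listed promoter are missing from each set. Median GC content was 60.7% in members, 61.0% in WT-only and 56.7% in all promoters.

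Motifs were counted as exact matches on either strand, and a match is a description of the letters and not a bound site. The ETS motif CCGGAAG was found in 152 of 611 member promoters (24.9%, 21.5 to 28.5%), in 21.2% (19.5 to 22.997%) of WT-only promoters and in 11.7% of all promoters. NRF1 (GCATGCG) was found in 9.17%, 8.17% and 4.47%, and CRE (TGACGTC), the site of CREB and ATF factors, in 7.86%, 6.94% and 3.88%. SP/KLF (GGGCGGG) was found in 45.0% (41.0 to 49.1%) of member promoters, 51.6% (49.4 to 53.7%) of WT-only promoters and 34.2% of all promoters. The TATA sequence TATAAA, searched over the whole window and not at a fixed place, was found in 6.06% (4.30 to 8.25%), 5.61% and 12.7%. In these counts, promoters of both classes of WT summit held ETS, NRF1, CRE and SP/KLF matches more often than all promoters and the TATA sequence less often, by values alone and with no test.

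The other motifs are given in the same order. The shares in members, WT-only and all promoters were 39.3%, 40.1% and 38.5% for NFY (CCAAT), 10.1%, 10.8% and 7.91% for the E-box CACGTG, 7.04%, 8.41% and 6.28% for YY1 (AAGATGG) and 4.26%, 4.04% and 3.64% for ZNF143 (ACTACAA). The motif of PU.1 type, GAGGAAG, which resembles the site of the master factor of macrophages and shares its GGAAG with the ETS motif, was found in 13.4%, 14.3% and 13.3%. AP-1 (TGANTCA) was found in 4.58% (3.07 to 6.56%), 4.61% and 7.04%. For factors known to bind Groucho proteins, the shares were 3.11%, 3.47% and 4.73% for RUNX (TGTGGTT) and 1.96%, 2.19% and 3.25% for TCF/LEF (CTTTGAT), and for the Notch factor RBPJ (TGGGAA) 22.1%, 21.0% and 24.2%.

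**Figure D2:**
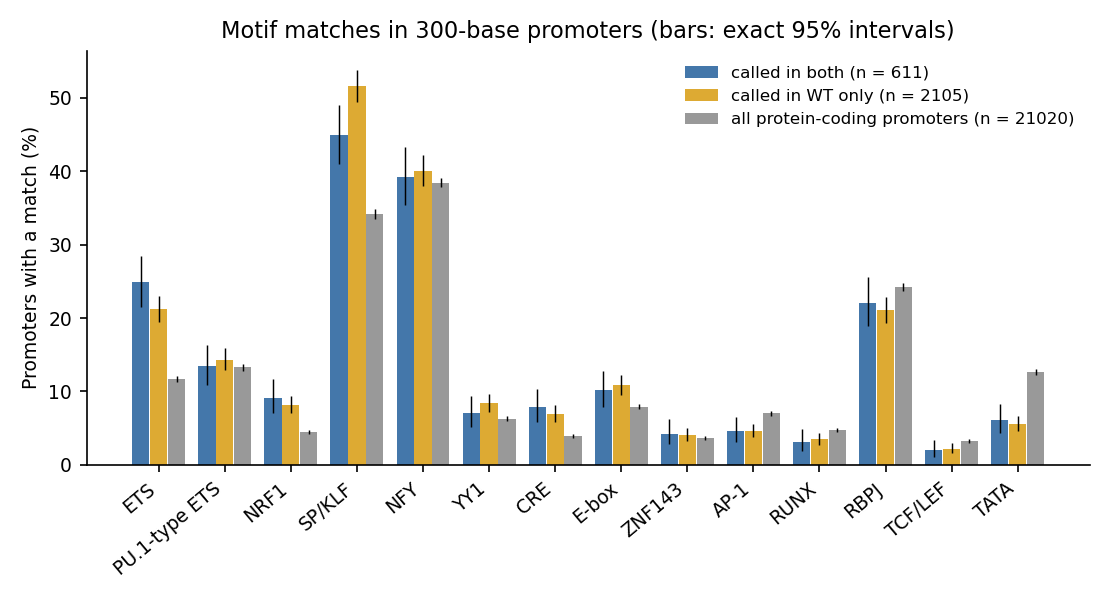
Percentage of 300-base promoters with at least 1 match to each of 14 motifs (y axis), for 611 member, 2105 WT-only and 21020 protein-coding promoters, with exact 95% intervals as error bars. Members stand at 24.9% for ETS against 11.7% in all promoters, and at 6.06% for TATA against 12.7%.

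Scores within the members are given by these features as medians, with no test. Members with an ETS match had median scores of 6.62 in WT and 4.32 in Tle4cKO (153 members), and those without 6.89 and 4.29. Those with the TATA sequence had medians of 8.24 and 4.43 (38 members), against 6.75 and 4.29 without it. WT summits upstream of the start had a median of 8.05 and those downstream 6.57, while their Tle4cKO partners had medians of 4.37 and 4.27. An end of a lncRNA gene lay within 1 kb of 109 members (14.2%, 11.8 to 16.8%) and of 13.1% of WT-only summits. A further WT summit lay in the gene or within 10 kb of it for 31.6% (28.3 to 35.0%) of members and 37.5% (35.7 to 39.3%) of WT-only summits.

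The scores that chose the members are given as a description. The WT scores ran from 1.95 to 78.2 with a median of 6.78 (quartiles 5.06 and 9.69), and the Tle4cKO scores from 1.75 to 65.4 with a median of 4.24 (quartiles 3.27 and 5.63). The WT-only summits had a median WT score of 4.61 (quartiles 3.53 and 6.15). At starts, a partner was found for 9.04% of 863 WT summits scoring under 4, 16.4% of 991 from 4 to 6, 28.9% of 654 from 6 to 9, and 58.3% of 331 scoring 9 or more. The order of the members by one score followed the order by the other loosely, with a Spearman rho of 0.38 over 770 regions that share their libraries. Of the first 50 members by WT score, 21 were also among the first 50 by Tle4cKO score.

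**Figure D3:**
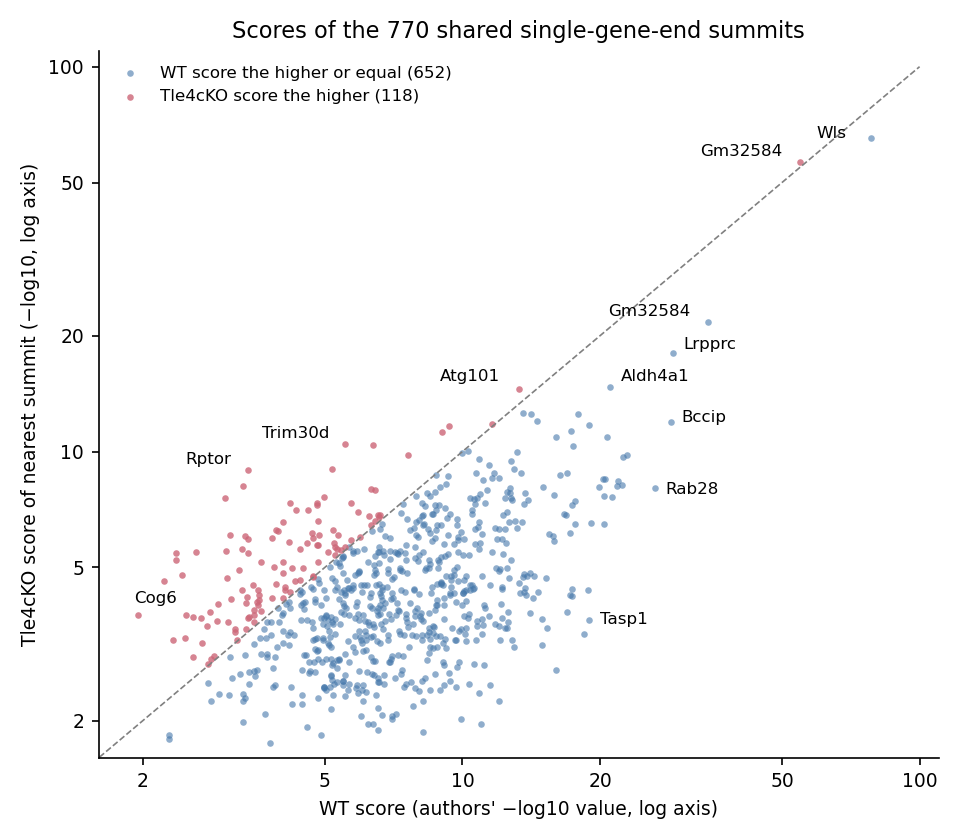
WT score (x axis) against the score of the nearest Tle4cKO summit (y axis) for the 770 members, both as the authors' −log10 value on log axes, with the dashed line at equal scores. Most points (652) lie on or below the line, the Wls and Gm32584 regions stand apart at the upper right, and 118 points in red lie above the line.

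After these regions, the members with the highest WT scores lay at starts of genes of varied function, among them the promoters printed above. Lrpprc, which stabilises mitochondrial mRNA, came next by both scores (28.8 and 18.03). Zfp433, a zinc finger gene, had scores of 22.9 and 9.81, and Stam, an adaptor that sorts ubiquitinated receptors in endosomes, 22.4 and 9.70. Dis3l, the nuclease of the cytoplasmic RNA exosome, had 22.3 and 8.17, and Mat2a, the enzyme that makes S-adenosylmethionine, 21.2 and 7.63. These 5 were high in both lists, while other members with high WT scores were low in Tle4cKO. Tasp1, the protease that cleaves the MLL histone methyltransferases, scored 18.96 in WT and 3.66 in Tle4cKO, and Nup85, a nucleoporin, 18.8 and 4.36.

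The members with the highest Tle4cKO scores after these regions and Lrpprc were Aldh4a1, a mitochondrial enzyme of proline breakdown (21.1 in WT and 14.7 in Tle4cKO), and Atg101, a subunit of the complex that starts autophagy (13.3 and 14.5). Sem1, a small proteasome subunit, followed with 13.5 and 12.6. P2ry6, a receptor for the nucleotide UDP that is known in macrophages, scored 14.1 and 12.5, ranking 8 of 770 by Tle4cKO score and 55 by WT score; its strand was not known. Cenpn, a centromere protein, scored 17.9 and 12.5, and Ostc, a subunit of the oligosaccharyltransferase, 14.5 and 11.98. Dgat2, which makes triglycerides, had nearly equal scores of 11.6 and 11.8.

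In 118 members (15.3%, 12.9 to 18.1%) the Tle4cKO score was above the WT score. Their median scores were 4.00 in WT and 5.42 in Tle4cKO, against 7.54 and 4.01 in the other 652. The split was made on these same scores, which favours a low WT and a high Tle4cKO median, so nothing is read from these medians. The greatest difference was at Rptor, the scaffold of mTORC1, with 3.40 in WT and 8.95 in Tle4cKO and summits 2 bp apart. Trim30d, of the tripartite motif family, followed with 5.54 and 10.4, and Vmn2r2, a vomeronasal receptor gene whose listed start lies far from the summit (position -34244), with 3.30 and 8.14. The next genes in order were as follows. Arfgap1, a GTPase-activating protein of Golgi coats, scored 3.03 and 7.55, Dync1li2, a light intermediate chain of dynein, 6.37 and 10.4, and Copb1, a subunit of the COPI coat, 5.19 and 8.998. Mettl4, Micu3, Capn10, Zfp429, Zfp768 and Hsbp1 completed the first 12, with Tle4cKO scores from 5.23 to 7.35 and WT scores from 2.36 to 4.32. With unknown depth and no replicate, whether any of these differences exceeds the spread between libraries was not tested.

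The members with the lowest WT scores were Cog6, a Golgi tethering protein (1.95 in WT and 3.76 in Tle4cKO), Tex10 (2.23 and 4.60) and the second summit of Patl1 (2.28 and 1.84). Besides Gm32584, 5 genes had a pair of members at their start. Patl1, a factor of mRNA decay, had WT summits 373 bp upstream (8.98 and 4.59) and 510 bp downstream (2.28 and 1.84), each with a Tle4cKO partner of its own. In Dglucy, Lims1, Pomp and Ptpmt1 both WT summits had the same Tle4cKO summit as partner, so these pairs are 1 region in the Tle4cKO list.

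Member genes were grouped with 43 function lists, which hold 339 of the 764 genes. A gene can be in several lists, and the other 425 genes are in none. The lists are not complete, so a member can have a function whose list leaves it out. Over all genes with a WT summit at a single-gene end, 764 of 3442 (22.2%) had a member. This share and the counts below come from the contrast that chose the members, so they describe the lists and nothing is read from them. Of the lists, 5, marked in the plot of lists, were written after the members had been seen, and support nothing.

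**Figure D4:**
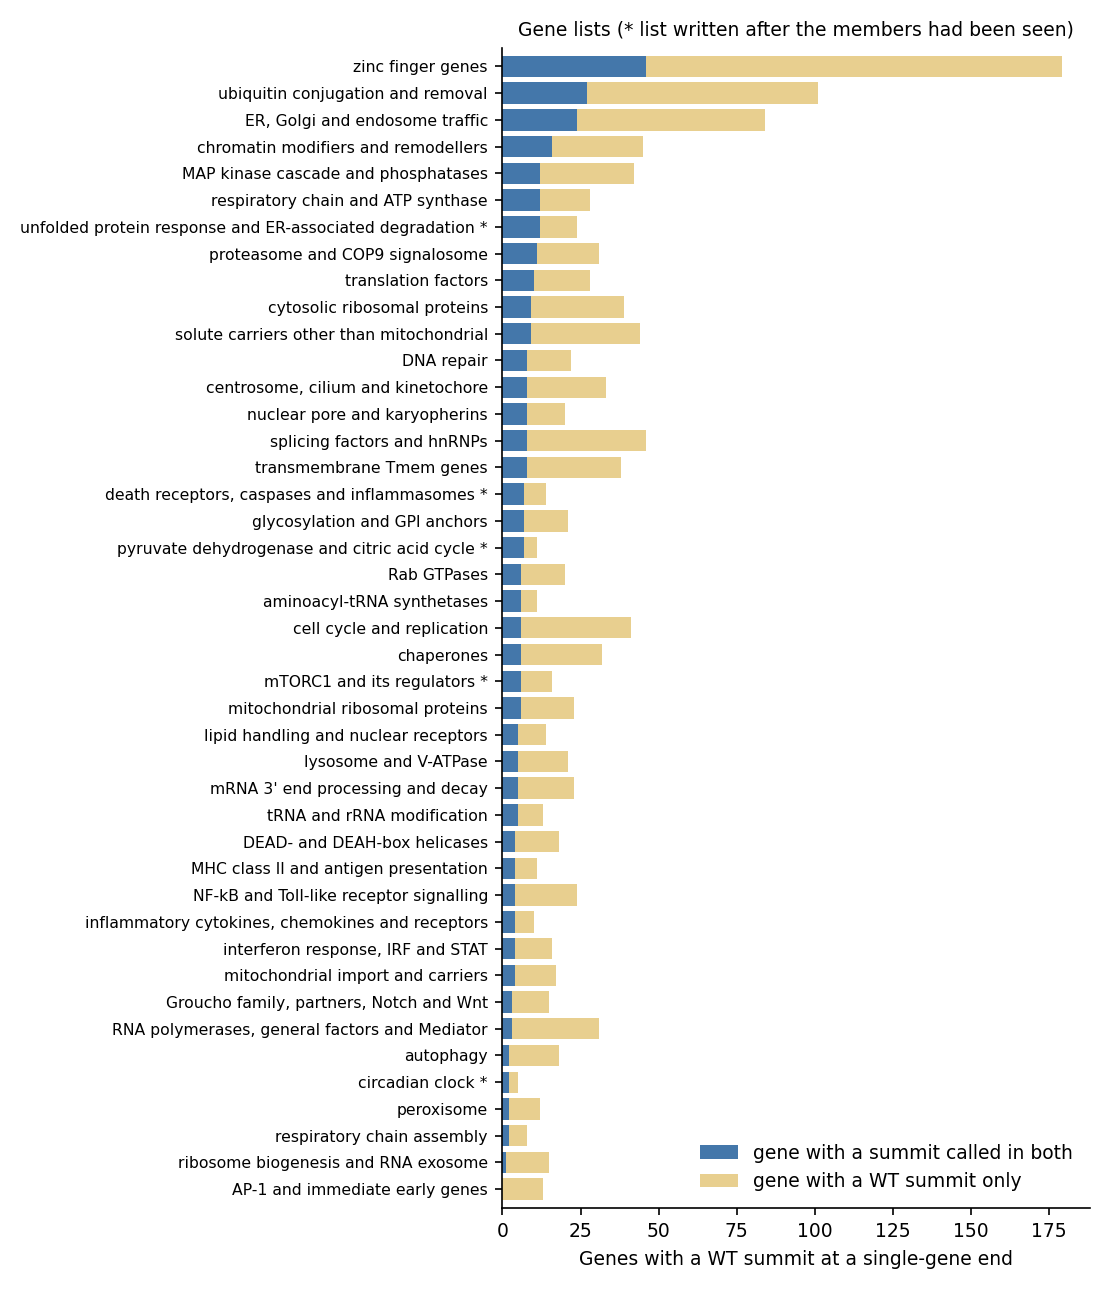
Number of genes (x axis) with a WT summit at a single-gene end in each of 43 function lists (y axis), split into genes with a member summit (blue) and genes with WT-only summits (sand). Zinc finger genes hold the most members (46 of 179), and AP-1 and immediate early genes hold 0 of 13.

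Genes of mitochondrial energy production formed a first group. Of 28 genes of the respiratory chain and ATP synthase with a WT summit at a single-gene end, 12 had a member, with median scores of 8.92 in WT and 6.404 in Tle4cKO. Complex III was represented by Uqcrc2 (13.6 and 4.82), Uqcrc1 (8.76 and 6.24), the Rieske protein gene Uqcrfs1 (9.09 and 3.99) and the cytochrome c1 gene Cyc1 (5.25 and 3.35). Cytochrome c oxidase was represented by Cox7c (12.6 and 6.57) and by Cox7a2l, which joins complexes into supercomplexes (11.4 and 9.21). Complex I had Ndufb2 (10.8 and 7.58), Ndufb4 (6.87 and 3.35), Ndufb8 (6.66 and 2.07) and Ndufs4, where Tle4cKO was the higher (4.97 and 7.64). ATP synthase had Atp5l (11.2 and 7.34) and Atp5j2 (5.89 and 6.97). Ndufc1 (10.1) had the highest WT score among the 16 genes of this list called in WT alone.

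Fuel enzymes upstream of the respiratory chain appeared as well, in a list written after the members had been seen (7 of 11). The pyruvate dehydrogenase complex had Pdhb (10.8 and 3.62), Dlat (7.45 and 2.45) and Dld (11.6 and 5.49), its E1, E2 and E3 components. The citric acid cycle had the citrate synthase gene Cs (5.51 and 3.97), Ogdh (8.16 and 3.24) and Suclg1 (14.2 and 4.15). Of 17 import and carrier genes, 4 had a member, led by the phosphate carrier gene Slc25a3 (7.61 and 3.51), and of 23 mitochondrial ribosomal protein genes 6 had one. Besides Mrpl11 these were Mrps9 (10.7 and 6.31), Mrpl9 (10.6 and 7.53), Mrps14 (4.43 and 3.99), Mrpl19 (4.05 and 6.57) and Mrpl36 (3.07 and 3.62).

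The machinery of cytosolic protein synthesis formed the next group. Of 28 translation factor genes 10 had a member, and eIF3, which holds the small ribosomal subunit at initiation, was represented by Eif3b, Eif3h (5.47 and 5.31), Eif3a (5.16 and 3.11) and Eif3d (3.84 and 2.45). Eif2s2, the beta subunit of eIF2, scored 16.7 and 6.88, the helicase gene Eif4a2 9.39 and 2.53, and the release factor gene Etf1 5.27 and 4.60. Of 39 cytosolic ribosomal protein genes 9 had a member. Rps23 (18.9 and 11.7) and Rpl21 (14.0 and 4.83) had the highest WT scores, and Rps29 combined a WT score of 8.21 with 1.87 in Tle4cKO. Ribosomal protein genes have many processed copies, which can take reads from them. Of 11 aminoacyl-tRNA synthetase genes, which charge tRNAs with amino acids, 6 had a member: Farsb (12.7 and 8.06), Cars (10.3 and 2.49), Dars (10.0 and 5.37), Nars2 (8.51 and 7.68), Tars (4.71 and 3.48) and Qars (4.42 and 4.63).

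Protein folding and breakdown formed another group. Of 31 genes in the list of the proteasome and COP9 signalosome 11 had a member, with median scores of 6.55 and 3.05. The proteasome gene Sem1, a member described above, is not in this list. The 19S regulatory particle gave most of them, led by Psmd11 (13.3 and 4.57) and Psmd1 (10.4 and 7.55), and the 20S core gave Psmb7 (6.15 and 2.38) with its assembly factor Pomp. No COP9 subunit was among them, but of the COP9 genes only Cops4 and Cops8 had a WT summit at a single-gene end. Of 101 genes of ubiquitin conjugation and removal 27 had a member, including the deubiquitinase genes Usp47 (12.7 and 7.56), Usp14 (12.6 and 3.82) and Usp48 (12.1 and 4.96) and the ligase gene Ube3a (11.996 and 6.29). Of 32 chaperone genes 6 had one, among them Hspa9, the mitochondrial Hsp70 (9.90 and 6.17), and Hspa5, the endoplasmic reticulum Hsp70 known as BiP (6.29 and 4.30). The unfolded protein response list, written after the members had been seen, gave 12 of 24. Both the sensor gene Ern1, which encodes IRE1 (8.46 and 5.24), and Xbp1, whose mRNA IRE1 splices (5.33 and 2.87), had members. So did Vcp, the ATPase that pulls proteins out of the membrane (15.7 and 6.05), its cofactor gene Nploc4 (5.32 and 5.57), and Edem3 (6.401 and 2.63).

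Membrane traffic gave 24 members among 84 genes of the ER, Golgi and endosomes. The COPII coat, which buds from the ER, had Sec23b (10.9 and 5.80) and Sec13 (2.77 and 3.51), and the COPI coat had Copb2 (11.04 and 3.67) and Copb1. SNARE proteins included Gosr2 (13.7 and 7.78), Stx17, the syntaxin of autophagosomes (7.77 and 3.35), and Ykt6 (3.49 and 3.62). ESCRT subunits, which form multivesicular bodies, were Vps37a (14.9 and 3.15), Chmp3 (13.5 and 6.54), Vps37c (9.15 and 7.13), Vps36 (6.33 and 2.64) and Chmp2b (4.94 and 3.24). Of 20 Rab GTPase genes 6 had a member, and apart from Rab28 their WT scores were between 3.37 and 8.51. Of 21 lysosome and V-ATPase genes 5 had one, namely Ctsb (9.83 and 3.42), Lamtor3 (6.73 and 2.49), Atp6v1h (6.58 and 6.76), Atp6v1f (4.94 and 3.27) and Atp6v0d1 (4.17 and 5.83). Of 18 autophagy genes 2 had one, Atg101 and Atg16l2 (5.11 and 3.41), and Rb1cc1 (10.9), Gabarap (8.09), Map1lc3b (7.404) and Becn1 (6.95) were among those called in WT alone. The mTORC1 list, also written after the members had been seen, gave 6 of 16, including Mlst8, a subunit of the kinase complex (12.1 and 3.24), and Mios, of the GATOR2 complex (7.55 and 3.61), beside Flcn, Lamtor3, Sec13 and Rptor.

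**Figure D5:**
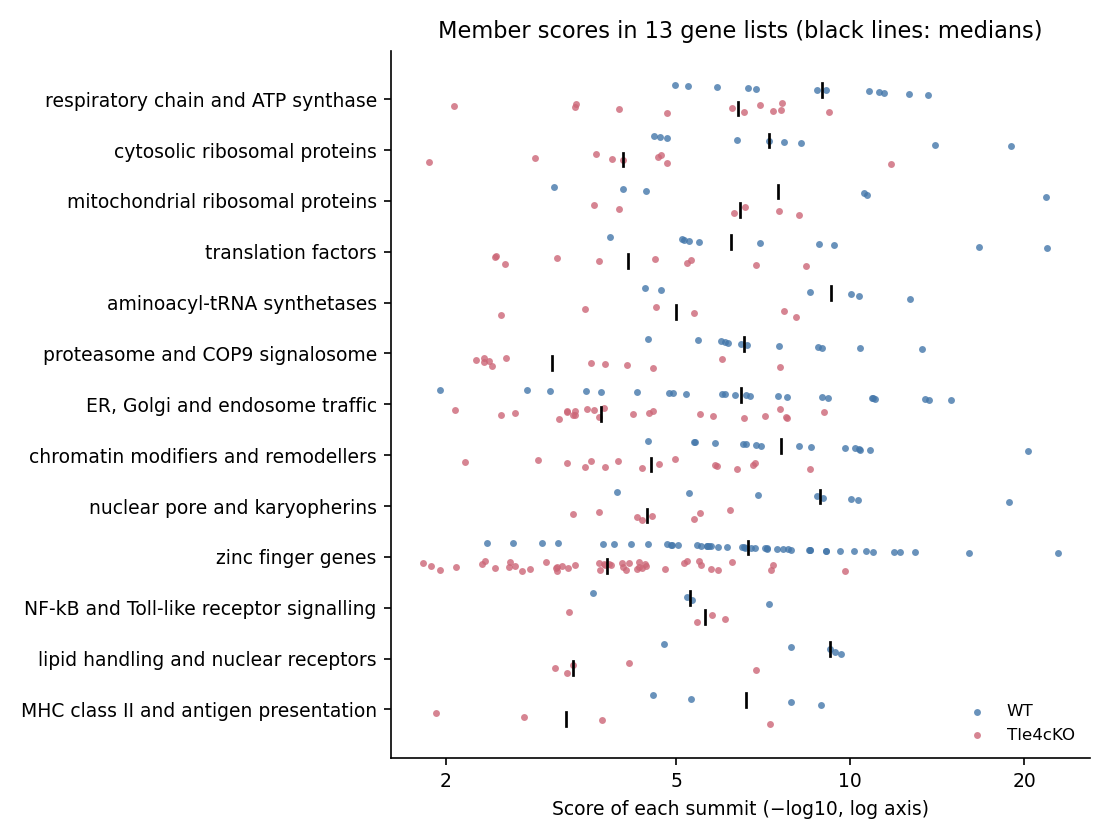
WT (blue) and Tle4cKO (red) scores, as the authors' −log10 value on a log axis, of each member summit in 13 gene lists, with black lines at the medians. The respiratory chain list has medians of 8.92 in WT and 6.404 in Tle4cKO, and the proteasome list 6.55 and 3.05. The 4 genes of NF-kB signalling have a Tle4cKO median (5.602) above their WT median (5.28). The same holds for 3 lists not drawn, with the WT median given first. They are tRNA and rRNA modification (4.19 and 5.01), glycosylation (4.81 and 4.94) and ribosome biogenesis (6.54 and 6.84, from 1 summit).

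Chromatin and RNA regulators were also represented. Of 45 chromatin modifier and remodeller genes 16 had a member, led by Hdac2, a histone deacetylase (20.3 and 8.51). Histone demethylases were Kdm4a (10.8 and 6.38) and Kdm3a (10.4 and 4.37). The H3K4 methyltransferase complexes had the catalytic subunit gene Setd1a (8.56 and 5.84) and their common subunit gene Rbbp5 (10.4 and 3.78), and the Polycomb complex PRC2 had Eed (9.79 and 5.88). SWI/SNF and ISWI remodellers had Smarce1 (8.16 and 6.798) and Smarca5 (6.52 and 2.16). Of 20 genes of the nuclear pore and its transport receptors 8 had a member, and after Nup85 the highest WT scores were at Ipo13 (10.3 and 5.37), Ipo7 (10.0 and 4.29) and Ranbp2 (8.99 and 4.54). Nonsense-mediated decay had Upf2 (20.5 and 8.51) and Upf3a (10.2 and 4.37), and the decapping enzyme had Dcp1a (7.48 and 5.46) and Dcp2 (3.56 and 4.36), in a list with members at 5 of 23 genes. Of 46 splicing and hnRNP genes 8 had a member, and outside that list the RNA-binding proteins Tardbp (19.1 and 6.54) and Zranb2 (20.4 and 6.47) had high WT scores. Of 31 genes of RNA polymerases, general factors and Mediator 3 had a member. In the list of ribosome biogenesis and the exosome 1 of 15 genes did, Gnl2 (6.54 and 6.84). That list leaves out the exosome gene Dis3l, a member described above.

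Zinc finger genes were the longest list, with 46 of 179. Most of these genes encode DNA-binding proteins, many of them of the KRAB type that silences retroelements, and they lie in clusters of close copies. Of the 46, 18 lay in 6 runs in which neighbouring members were at most 1 Mb apart. The longest run, from 67360462 to 67683355 of chromosome 13, held Zfp953, Zfp429, Zfp874a, Zfp748 and Zfp738, and runs of 3 lay on chromosome 7, with Zfp606, Zfp329 and Zscan22 and with Zfp60, Zfp780b and Zfp850, and on chromosome 8, with Zfp868, Zfp869 and Zfp963. Median scores of the list were 6.67 in WT and 3.7997 in Tle4cKO. After Zfp433, Zfp869 (16.0 and 2.71), Zfp97 (12.96 and 3.11) and Zfp60 (12.2 and 3.70) had the highest WT scores. Reads from near-identical copies can be placed at the wrong gene, so these assignments are uncertain.

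Genes of inflammatory signalling are given list by list, beside the overall share of 22.2%. Of 24 genes of NF-kB and Toll-like receptor signalling 4 had a member: Relb, an NF-kB subunit (7.23 and 5.43), Nfkbiz, a nuclear IkB protein induced by Toll-like receptors (5.33 and 6.06), the ligase gene Traf6 (5.22 and 5.77) and the inhibitor gene Tnip1 (3.60 and 3.27). Ripk2 (8.67), Chuk (7.74) and Rela (7.48) were called in WT alone. Of 16 genes of the interferon response 4 had a member, the kinase gene Jak1 (7.11 and 5.48), Ifi35 (6.23 and 3.54), Stat3 (4.75 and 3.07) and the receptor gene Ifngr1 (4.72 and 2.84). Among 10 genes of cytokines, chemokines and their receptors 4 had a member: the GM-CSF receptor gene Csf2ra (7.51 and 5.24), Tgfbr2 (6.52 and 2.59) and Tgfbr1 (2.28 and 1.79), the pair that binds TGF-beta, and Il6ra (6.45 and 2.85). Most of the 10 were receptor genes, and those called in WT alone were Il10rb, Il1rap, Il2rg and Il6st and the chemokine genes Ccl12 and Cxcl2. Of 13 AP-1 and immediate early genes with a WT summit at a single-gene end none had a member, with Atf7 (13.9), Atf4 (7.53), Batf (7.52) and Klf4 (6.45) the highest in WT. A list of death receptors, caspases and inflammasomes, written after the members had been seen, gave 7 of 14. In it Casp8 (7.04 and 4.16) and its regulator gene Cflar (5.36 and 2.87) had members, as did the flagellin and secretion system sensor family gene Naip2 (9.26 and 6.72) and the inflammasome gene Nlrp1a (9.07 and 3.18).

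Antigen presentation and lipid metabolism gave a few members each. Of 11 antigen presentation genes 4 had one: Cd74, the invariant chain (8.90 and 7.27), the class II gene H2-Eb1 (4.57 and 1.92), Rfxap, a subunit of the RFX factor that binds class II promoters (7.89 and 3.73), and the peptide-trimming enzyme gene Erap1 (5.31 and 2.74). In the list of lipid metabolism and nuclear receptors, 5 of 14 genes had one. Srebf2, the master factor of cholesterol synthesis (7.90 and 3.32), had a member together with its target gene Hmgcs1 (9.21 and 3.10). The fatty acid receptor gene Pparg (9.41 and 6.88) and the lipase gene Lpl (4.77 and 4.15) were also among them. Of 15 genes of the Groucho family, its partners and the Notch and Wnt pathways, members were at Wls, Hdac2 and Maml1, a Notch coactivator (8.62 and 3.09). Of the Tle genes in this list only Tle1 had a WT summit at a single-gene end, and it was called in WT alone.

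Further members known in myeloid cells fell in no list and were picked after their values had been seen. They included P2rx4, an ATP-gated channel (5.72 and 5.90), Cybc1, a chaperone of the phagocyte NADPH oxidase (7.21 and 2.96), Rac2, its GTPase (3.55 and 2.70), and Mitf, a factor of lysosome genes (4.10 and 4.36). Ets2 scored 8.63 and 3.39, the kinase gene Ptk2b 5.05 and 3.51, and Cd38, an enzyme that uses NAD, 4.40 and 5.57. The clock repressor genes Cry1 (7.34 and 2.64) and Cry2 (5.37 and 4.14) both had members, in a clock list of 5 genes with WT summits that was written after the members had been seen.

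No defining macrophage marker was a member, but few of these genes had a WT summit that could be one. Of 14 such genes, 4 had a WT summit at a single-gene end, Cd14 (5.73), Fcgr1 (5.49), Cd68 (4.28) and Cx3cr1 (2.89), and none had a Tle4cKO summit within 10 kb. Over all genes with a WT summit at a single-gene end 22.2% had a member, so nothing is read from the absence among these 4. C1qa, C1qb, C1qc, Itgam and Lyz2 had no summit within 10 kb in either list. Of the markers of other cell types, no epithelial (6 genes), T cell (5), B cell (4), neutrophil (4), dendritic cell (4), fibroblast (4) or endothelial (3) gene was a member, and 2 had a WT summit at a single-gene end, Kdr (4.33) and Cd79b (1.93). A WT summit lay within 10 kb of 8 of 14 macrophage, 4 of 4 dendritic cell and 3 of 3 endothelial genes. For the other types it was 1 of 6 epithelial, 2 of 5 T cell, 2 of 4 B cell, 1 of 4 neutrophil and 0 of 4 fibroblast genes. Of all these markers, only Xcr1 of dendritic cells (4.06) and Pecam1 of endothelium (6.23) had a Tle4cKO summit within 10 kb. The share of all genes with a summit within 10 kb is not given here, so nothing is read from these counts. The labelled cell type therefore cannot be checked on the members.

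By chromosome, the share of WT single-gene-end summits that were members ranged on the autosomes from 16.7% on chromosome 12 to 28.7% on chromosome 18. On the X chromosome 6 of 76 (7.89%, 2.95 to 16.4%) were members, against 764 of 3489 on the autosomes (21.9%, 20.5 to 23.3%). The X summits also had the lower median WT score, 4.25 against 5.03, and its part in the lower share was not tested. The X members included Enox2, Uprt, Phka2, Piga and Msn, and Msn, which encodes moesin, a linker of actin and membrane, had scores of 5.81 and 3.32.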

How the data were processed

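H3K27ac CUT&Tag was measured in 2 libraries, 1 per genotype. The submitters' processing notes name cutadapt 1.14, Bowtie2 2.2.5 and the build mm10, without their roles. Which caller made the peaks, with which settings, control and depth, is not given in the sources used here. Summits of 1 bp were deposited by the authors with a score on the −log10 scale (lowest 1.35 in WT and 1.37 in Tle4cKO). Positions are counted from 1.

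Gene ends came from RefSeq genes on GRCm38.p6, the assembly behind mm10 (21887 protein-coding genes), and starts, strands and promoters from the RefSeq promoter table. Member genes were matched by gene identifier, 630 of 764. The code of the calls was checked on simulated data with partners planted inside the distance limit, where 650 of 650 were recovered. This says nothing about how well shared regions are found in the real lists. Python 3.11.15, pandas 2.3.3 and scipy 1.17.1 were used.

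The members and gene lists were chosen with earlier results of these data known. Genes were named as the first 12 by each score, the first 12 with the Tle4cKO score above the WT score, up to 4 per list by WT score, genes with 2 members, and the extremes and limits; others are of those lists or said to be chosen later. The printed promoters leave out chromosome 18. In the interferon list, 3 symbols (Mx1, Mx2 and Rigi) matched no gene. Alternatives were 8 settings of the rule and 2 for the motif shares. The Y and mitochondrial chromosomes were left out by the rule. Some genes are not reported here.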

Additional observations from a re-analysis of the deposited data

Results flagged for a closer look

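Chromosomes outside the rule also held summits, and 3 of the 4 counts were above 3, the limit used for flagging them. No number of summits was predicted there, so the limit is no test. The Y chromosome held 14 WT summits (highest score 41.0) and 9 Tle4cKO summits (highest score 32.04), of which 8 WT summits had a Tle4cKO partner and 1 met the other conditions for a member. The mitochondrial chromosome held 4 WT summits, with a highest score of 8.94, and 2 Tle4cKO summits, which is not above that limit, with a highest score of 4.59.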

How the results depend on the processing

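No paired analysis was possible because each genotype has 1 library, and no replicate could be left out. Windows of 500 bp and 2 kb, partner distances of 250 and 1000 bp, mutually nearest pairs and autosomes alone left the number of members between 635 and 829 (main 770). A score of at least 5 in both lists left 221 members and a score of at least 10 left 18. The share of WT single-gene-end summits with a partner (main 21.6%) was 17.8% with partners within 250 bp, 12.4% at a score of at least 5 and 6.52% at a score of at least 10. The median WT score (main 6.78) was 7.27, 9.27 and 17.7 under these 3 settings, and the median Tle4cKO score (main 4.24) was 6.57 and 12.2 at the score minimums, which remove low values by construction. The share at transcription starts (main 98.0%) was 98.9% with a window of 500 bp, 95.3% with 2 kb and 83.3% at a score of at least 10. Of 28 motif shares under the alternatives, 5 left the interval of the main value: the E-box (7.43%), ZNF143 (2.70%) and TATA (3.38%) with the summit inside the promoter, and AP-1 (6.59%) and TATA (8.79%) at a score of at least 5. Depth is unknown, so what each list could detect cannot be stated.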
